A study of Mus musculus with 35 samples.

Results

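Mouse embryonic fibroblasts (MEFs) that received no MMS were compared at 72 h with 24 h after fresh medium, over all genes measured. The comparison used 8 of the 35 arrays of the series, the 4 labelled control 72 h and the 4 labelled control 24 h, chosen by these labels alone. MEFs are primary fibroblasts grown out of mouse embryos, here of the strain C57BL6/J at day 15.5, carried through 2 passages in medium with 10% serum at 5% oxygen, as the labels give it. The study's methods give an earlier day of gestation and more passages, and which holds for these samples is not known. Every culture was given fresh medium 24 h after plating. In the treated groups this medium held methyl methanesulfonate (MMS), a chemical that attaches methyl groups to DNA bases, at 40 μg/mL, and in the control groups it held none. The other arrays were 4 each of control cells at 0, 1 and 8 h and of MMS-treated cells at 1, 8 and 24 h, and 3 of MMS-treated cells at 72 h. All 35 entered the model behind every p-value and the filter on low signals. Time after fresh medium is the only difference between control 24 h and control 72 h that the labels give, and the question of the comparison is how untreated cultures changed over a further 48 h. The series calls the arrays of a group biological replicates without saying whether these were separate embryos or cultures, and p-values here rest on how far these arrays lie from each other, which may be technical.

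Fibroblasts divide when growth factors of serum reach them and can leave the cell cycle for a reversible resting state, quiescence, in which they go on making and remodelling extracellular matrix. Growth factor signals first switch on early response genes through the ERK kinases and serum response factor (SRF). E2F factors then switch on the genes for DNA replication, and complexes built on MuvB with B-MYB and FOXM1 switch on those for mitosis. Adhesion and tension of the actin cytoskeleton act on fibroblasts through the coactivators YAP and MRTF, which raise contractile and adhesion genes.

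Each value is the log2 signal of an Affymetrix probe set as deposited, on which a difference of 1 is a change of 2-fold. The brightest probe set of a gene, by its mean over the series, stood for that gene. Genes were tested when 1 group or more had a mean at or above 4.40, which is the 40th percentile of the table. This kept 14135 of 18194 genes, and values under the limit lie near the background of the arrays. Where a group mean lay under it, the fold is a bound, with each array under the limit set to the limit. Medians of the 8 arrays lay between 5.02 and 5.09. Across genes, which are not independent replicates, arrays of control 24 h correlated at 0.996 to 0.997 with each other, those of control 72 h at 0.992 to 0.998, and arrays of different groups at 0.975 to 0.984 (Pearson's r). Control 72 h replicate 1 stood apart from its group, with r of 0.992 to 0.994 to the other 3 arrays, and the counts of higher or lower list members without it are given where they moved by more than 2 genes. The other counts moved by 2 genes or fewer. All 11 fibroblast markers reached the limit on all 8 arrays, with a mean of 11.42 to 11.53 at 24 h and 11.76 to 11.85 at 72 h. The 19 macrophage markers had a mean of 4.28 to 4.39 on the 8 arrays compared. On the control 8 h arrays it was 7.95 to 8.17 and on the MMS 8 h arrays 7.36 to 7.60, and these arrays entered the model and the filter. The 28 markers of intestinal epithelium had a mean of 4.31 to 4.51 on 7 arrays and of 5.12 on control 24 h replicate 4, on which 6 of them lay more than 1 log2 unit above the other arrays of the group. On replicate 3 of control 0 h and of MMS 1, 24 and 72 h, 12 to 27 of them did, and on replicate 3 of control 1 h 6 did. The first 4 are called arrays with intestinal transcripts, and values without them stand beside the results that they moved most. Markers of skeletal muscle, endothelium, neurons and glia, erythroid cells, keratinocytes, and cartilage and bone had means between 4.04 and 5.08. In each list 4 to 11 members were tested, with at most 3 lower and 1 higher at 72 h. Lower were 3 of 6 keratinocyte markers (50%), 3 of 11 of skeletal muscle (27.3%) and 2 of 8 of cartilage and bone (25%). The share over all genes was 18.8%. The mean of the keratinocyte markers was 4.54 to 4.60 at 24 h and 4.24 to 4.39 at 72 h, near the limit. Those of smooth muscle are given with the contractile genes.

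At 72 h, untreated fibroblasts had lower signals than at 24 h for most of the genes listed for mitosis, DNA replication, early growth factor responses, contraction and the making of ribosomes. Signals were higher for most of those listed for matrix proteoglycans, lysosomes and the interferon response. They were also higher for 15 of 26 growth arrest genes. That count was 11 without control 72 h replicate 1 and 12 without control 24 h replicate 4. Of the 14135 genes tested, 2595 (18.4%) were higher at 72 h and 2655 (18.8%) were lower at an adjusted p under 0.05 (limma, Benjamini-Hochberg over all genes tested), 5250 (37.1%) in either direction. The median log2 difference over all genes was 0.02. Changes of 2-fold or more were seen in 245 genes (1.73%) upward and 248 (1.75%) downward, and of 4-fold or more in 46 and 14. The 4 arrays at 72 h all lay above the 4 at 24 h for 19.7% of genes and all below for 18.7%. Without control 72 h replicate 1 the test called 2219 genes higher and 2562 lower, and without control 24 h replicate 4 it called 2280 and 2393.

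**Figure D1:**
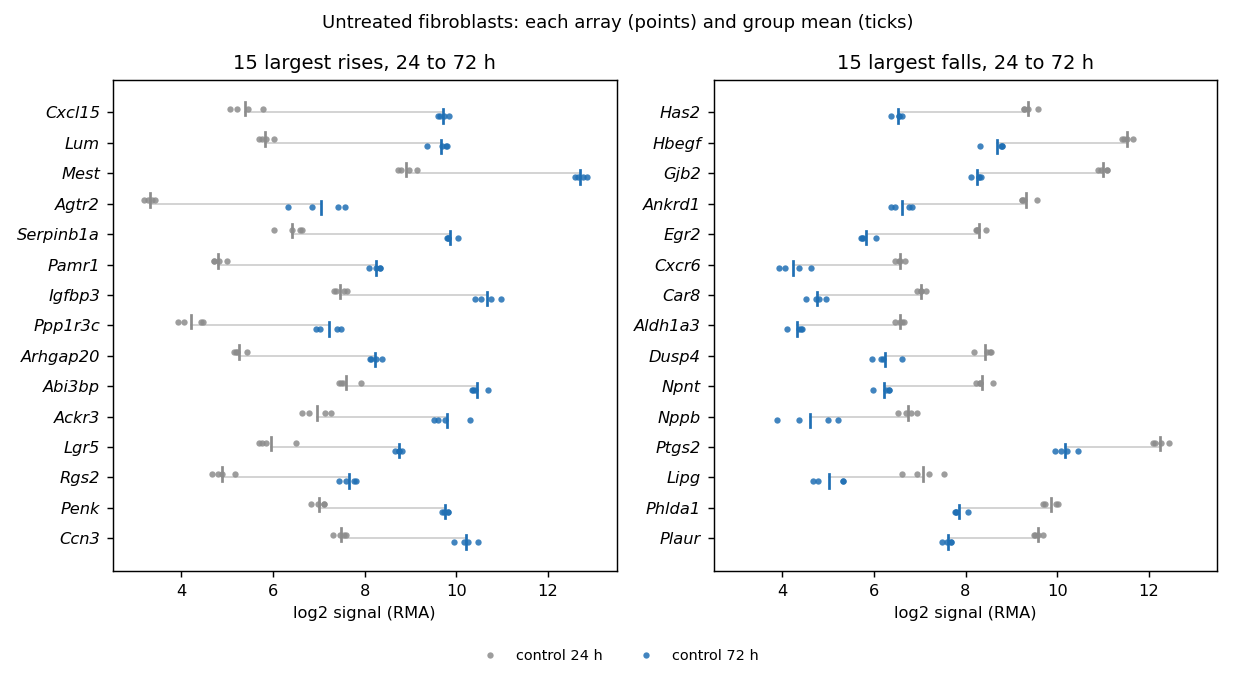
Log2 signal (x axis) of the 15 genes with the largest rise (left) and the 15 with the largest fall (right) on each control 24 h array (grey points) and control 72 h array (blue points), with ticks at the group means, of which those of Agtr2 and Ppp1r3c at 24 h and of Cxcr6 and Aldh1a3 at 72 h lie under the limit of 4.40. The groups do not overlap in any of these genes, which was a condition for choosing them, and the means of Cxcl15 and Has2, at the top of the 2 panels, moved from 5.38 to 9.70 and from 9.37 to 6.52.

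Genes for mitosis fell together. Of 40 tested, 39 were lower at 72 h, against 18.8% of all genes, none was higher, and the median log2 difference was -1.35 against 0.02 over all genes. The mean log2 signal of the list was 9.21, 9.22, 9.18 and 9.31 on the control 24 h arrays and 8.07, 7.83, 7.94 and 7.92 on the control 72 h arrays. Ube2c, the ubiquitin-conjugating enzyme with which the anaphase-promoting complex marks mitotic cyclins for destruction, had log2 signals of 10.97, 10.90, 10.82 and 11.04 at 24 h and 9.02, 9.20, 9.19 and 9.28 at 72 h. Each array at 72 h lay below each array at 24 h, and the difference of -1.76 (SE 0.12) was a 3.39-fold fall (adjusted p = 1.2e-12). The centromere histone Cenpa fell 3.19-fold (adjusted p = 2.2e-12), the spindle kinase Aurka 3.18-fold (adjusted p = 1.2e-15) and its activator Tpx2 3.14-fold (adjusted p = 5e-15). The proliferation antigen Mki67 differed by -1.15 (adjusted p = 1.6e-07) and Cdk1, the kinase that starts mitosis, by -1.21 (adjusted p = 2.3e-12). Pttg1, which encodes securin, was the member that did not pass the test, with a difference of 0.03 (adjusted p = 0.82). The counts of the list were equal without control 72 h replicate 1 and without control 24 h replicate 4.

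Promoters of mitotic genes are known for CCAAT boxes, bound by NF-Y, and for the cell cycle genes homology region (CHR), bound by MuvB complexes. Shown are the 3 mitotic genes with the largest fall among those whose promoter holds both. Genes of a single chromosome were left out of this choice. Each sequence is the 250 bases before the start of the gene (RefSeq, GRCm38.p6), 5′ to 3′. Ube2c lies at chr2:164769679-164769928, Espl1, which encodes separase, at chr15:102296043-102296292 and the spindle motor Kif11 at chr19:37376132-37376381, each on the plus strand. Capitals mark every match to CCAAT or TTTGAA on either strand, and in Ube2c a pair of CCAAT matches overlaps.
Ube2c: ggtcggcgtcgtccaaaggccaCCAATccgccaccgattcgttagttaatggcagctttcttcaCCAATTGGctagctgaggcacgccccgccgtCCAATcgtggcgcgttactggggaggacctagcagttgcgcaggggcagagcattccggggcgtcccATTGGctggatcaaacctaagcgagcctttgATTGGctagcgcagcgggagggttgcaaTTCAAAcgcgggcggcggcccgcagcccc
Espl1: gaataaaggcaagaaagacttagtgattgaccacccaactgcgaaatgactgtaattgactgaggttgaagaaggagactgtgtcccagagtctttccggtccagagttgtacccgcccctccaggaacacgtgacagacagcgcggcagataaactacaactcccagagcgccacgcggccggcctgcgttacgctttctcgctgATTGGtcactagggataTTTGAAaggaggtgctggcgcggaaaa
Kif11: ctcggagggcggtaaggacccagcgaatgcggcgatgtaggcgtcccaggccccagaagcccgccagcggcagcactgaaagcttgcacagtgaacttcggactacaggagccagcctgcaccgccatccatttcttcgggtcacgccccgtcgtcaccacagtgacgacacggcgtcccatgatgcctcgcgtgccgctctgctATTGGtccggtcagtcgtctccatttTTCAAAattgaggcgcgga
Of the 40 mitotic genes tested, 32 had a promoter in the table. CCAAT was found in 24 of these (75%), against 35.8% of the 11359 tested genes with a promoter and 34.5% of all 27025 promoters. TTTGAA was found in 11 of 32 (34.4%, against 10.8% and 16.3%) and both in 10 of 32 (31.2%, against 3.99% and 5.73%). A match says only that these letters are present. Espl1 fell by 1.44 (adjusted p = 1.8e-09) and Kif11 by 1.36 (adjusted p = 8.5e-09) on the log2 scale.

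Genes for DNA replication fell as a group, by less than those for mitosis in the median. Of 42 tested, 40 were lower and none higher, with a median log2 difference of -0.79. Rrm2, the subunit of ribonucleotide reductase that is made in S phase, had log2 signals of 11.97, 11.83, 11.99 and 12.08 at 24 h and 10.75, 10.45, 10.55 and 10.56 at 72 h. No array of one group reached the other, and Rrm2 fell 2.62-fold (log2 difference -1.39, SE 0.11, adjusted p = 1.4e-11). Uhrf1, which helps to copy DNA methylation to new strands, fell 2.46-fold, the leading-strand polymerase subunit Pole 2.37-fold and thymidine kinase Tk1 2.3-fold (adjusted p at most 2.5e-09). Among the MCM subunits of the replicative helicase, log2 differences ran from -1.10 in Mcm5 (adjusted p = 3.5e-08) to -0.45 in Mcm2 (adjusted p = 0.00018), and the sliding clamp Pcna differed by -0.56 (adjusted p = 1.3e-09). Gins3 (-0.12, adjusted p = 0.58) and Rfc1 (-0.16, adjusted p = 0.094) did not pass the test.

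The E2F site was searched in 4 spellings, TTTGGCGC, TTTCCCGC, TTTGGCGG or TTTCCCGG, on either strand. Among the replication genes whose promoter holds one, and with the same chromosome left out, Mcm5 had the largest fall. Its 250 bases before the start lie at chr8:75109259-75109508 on the plus strand, with the match in capitals.
Mcm5: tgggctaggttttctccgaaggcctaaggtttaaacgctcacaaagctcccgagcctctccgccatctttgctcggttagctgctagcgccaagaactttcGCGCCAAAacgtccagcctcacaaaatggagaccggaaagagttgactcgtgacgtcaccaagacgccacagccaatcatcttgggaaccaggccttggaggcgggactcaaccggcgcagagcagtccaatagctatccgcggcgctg
A match was found in 7 of the 35 replication genes with a promoter (20%), against 4.55% of tested genes and 2.73% of all promoters.

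Genes for homologous recombination and the Fanconi pathway, which repair and protect replicating DNA, were lower in 17 of 22 cases and higher in none, with a median of -0.47. The nuclease Exo1 fell 2.26-fold (adjusted p = 1.7e-08) and Brca1 1.97-fold (adjusted p = 4.1e-07), while the 5 members that did not pass had differences between -0.31 in Palb2 (adjusted p = 0.11) and 0.10 in Rad50 (adjusted p = 0.43). CDK inhibitors and regulators of G1 went both ways, with 6 of 20 higher (30%, against 18.4% of all genes) and 4 lower (20%, against 18.8%). The CDK inhibitor Cdkn1c had log2 signals of 8.09, 7.97, 8.0 and 8.02 at 24 h and 9.22, 9.05, 8.96 and 9.09 at 72 h, a non-overlapping rise of 2.08-fold (adjusted p = 1e-09). The pocket protein Rbl2, which forms the DREAM repressor complex in resting cells, rose 1.55-fold (adjusted p = 3.3e-06), and Ccne2, the cyclin of the G1 to S transition, fell 1.83-fold (adjusted p = 5.6e-05). Cdkn1a, the p53-dependent inhibitor, differed by 0.19 (adjusted p = 0.045), a call that was lost without any 1 of 7 of the 8 arrays. Neither the inhibitor Cdkn1b (0.18, adjusted p = 0.27) nor the serum-induced cyclin Ccnd1 (0.14, adjusted p = 0.12) passed the test. The count of higher G1 regulators was 3 without control 72 h replicate 1 or with arrays centred on their median, and 2 without control 24 h replicate 4. The share of higher members thus did not stay above that of all genes.

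Early response genes, which growth factors switch on without new protein synthesis, were lower in 18 of 27 cases and higher in none, with a median log2 difference of -0.69. Egr2, a zinc finger factor induced by serum, had log2 signals of 8.25, 8.22, 8.25 and 8.44 at 24 h and 6.05, 5.72, 5.74 and 5.77 at 72 h. No array at 72 h reached the values at 24 h, and Egr2 fell 5.55-fold (log2 difference -2.47, SE 0.12, adjusted p = 6.1e-16). Its relative Egr3 fell 3.44-fold (adjusted p = 2.8e-06), but its other probe set, over the limit in both groups, differed by -0.06. The phosphatases Dusp4 and Dusp5, which ERK induces and which switch ERK off again, fell 4.58-fold and 3.57-fold (adjusted p = 2.3e-13 and 2.3e-14). The AP-1 subunit Fosl1 differed by -1.58 (adjusted p = 7.5e-15) and Myc, the growth regulator, by -0.88 (adjusted p = 6.4e-11). Members that are known for a short burst after stimulation did not all pass, among them Fos (-0.14, adjusted p = 0.79) and Atf3 (-0.39, adjusted p = 0.14). Fosb had means of 3.73 at 24 h and 3.66 at 72 h, both under the limit, so its difference of -0.07 (adjusted p = 0.8) says little.

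Hbegf, a ligand of the EGF receptor, was one of the 15 largest falls, on a list of growth factors of which 12 of 27 members were higher and 5 lower. It had log2 signals of 11.47, 11.53, 11.42 and 11.65 at 24 h and 8.32, 8.81, 8.78 and 8.80 at 72 h. Control 72 h replicate 1 was the lowest array, the groups were far apart, and Hbegf fell 7.16-fold (SE of log2 0.09, adjusted p = 5.6e-20). A second EGF receptor ligand, Ereg, fell 2.64-fold (adjusted p = 1.5e-13) and Fgf2, a mitogen of fibroblasts, 2.62-fold to a mean of 4.45, close to the limit (adjusted p = 8.5e-10). Also among the 15 largest falls, Ptgs2, the inducible cyclooxygenase, went from 12.10, 12.14, 12.27 and 12.45 to 10.47, 10.21, 9.95 and 10.08, a 4.18-fold fall without overlap (adjusted p = 3.3e-15). Phlda1 and the urokinase receptor Plaur fell 4.02-fold and 3.9-fold (adjusted p = 2.9e-16 and 8.4e-16).

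Contractile and adhesion genes that YAP and SRF are known to raise fell in 22 of 27 cases and rose in none, with a median of -0.37. Most of these falls were small, and the list mean moved from 12.03, 11.88, 11.88 and 11.94 on the control 24 h arrays to 11.32, 11.37, 11.31 and 11.35 on the control 72 h arrays, with no overlap. Ankrd1, a cardiac ankyrin repeat protein used as a readout of YAP, had log2 signals of 9.23, 9.23, 9.29 and 9.57 at 24 h and 6.84, 6.76, 6.37 and 6.46 at 72 h. This was a fall of 6.6-fold (SE of log2 0.12, adjusted p = 3.5e-17), the largest of the list. The fibronectin receptor subunit Itga5 fell 3.44-fold (adjusted p = 9.7e-10) and calponin Cnn1 from 12.42, 12.15, 12.10 and 12.27 to 10.55, 10.98, 10.79 and 10.88, or 2.7-fold (adjusted p = 4.6e-11). The YAP targets Ccn1 and Ccn2 differed by -0.55 and -0.56 (adjusted p = 1.7e-06 and 3.7e-07). For Ccn1, 2 other probe sets had a log2 difference of 0.03 each, which is no fall, and the remaining 1 had -0.52. Beta-actin, Actb, differed by -0.13 (adjusted p = 0.007), or by 0.012 over the mean of all its probe sets. The smooth muscle actin Acta2 did not pass the test (-0.14, adjusted p = 0.26), but it passed over the mean of all its probe sets (-0.70, adjusted p = 6e-07). Crim1 differed by -1.07 (adjusted p = 3.9e-05), or by -0.76 without control 72 h replicate 1, which had the value 8.40 against 9.47 to 9.76 in its group.

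Of 8 smooth muscle markers, several of which are also on the contractile list, 6 were lower at 72 h and none higher, and their mean was 9.25 to 9.50 at 24 h and 8.63 to 8.75 at 72 h. In such bulk samples fewer cells of a type and less RNA per cell cannot be told apart, and the part of these markers in the result was not tested. The skeletal muscle actin Acta1, from the marker list of that tissue, fell from 10.52, 10.38, 10.33 and 10.46 to 8.44, 8.61, 8.54 and 8.59 (3.67-fold, adjusted p = 2.9e-16), and of the other 10 skeletal markers tested 2 fell by less, among them the troponin Tnni1 by 0.64 on the log2 scale (adjusted p = 0.00011). Natriuretic peptide B, Nppb, fell 4.4-fold, with values at 72 h spread from 3.87 to 5.21 (adjusted p = 2.1e-10).

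Genes for ribosome biogenesis fell in 24 of 25 cases, with a median of -0.50, and their mean log2 signal was 9.62 to 9.74 at 24 h and 9.15 to 9.22 at 72 h. The pre-ribosome factor Rrp12 fell 2.04-fold (adjusted p = 5.1e-11) and Dkc1, which modifies ribosomal RNA and stabilizes telomerase RNA, 1.91-fold (adjusted p = 2.6e-10). Npm1, the abundant nucleolar chaperone, did not pass (-0.07, adjusted p = 0.38). Proteasome subunits were lower in 16 of 31 cases by small amounts, with the largest fall in Psmd13 (-0.37, adjusted p = 0.0007) and a median of -0.18, and heat shock chaperones in 7 of 14, with the small heat shock protein Hspb1 at -0.73 (adjusted p = 1.7e-07). None of these 3 lists had a member that was higher. With the arrays normalized to common quantiles again, 11 proteasome subunits were lower.

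**Figure D2:**
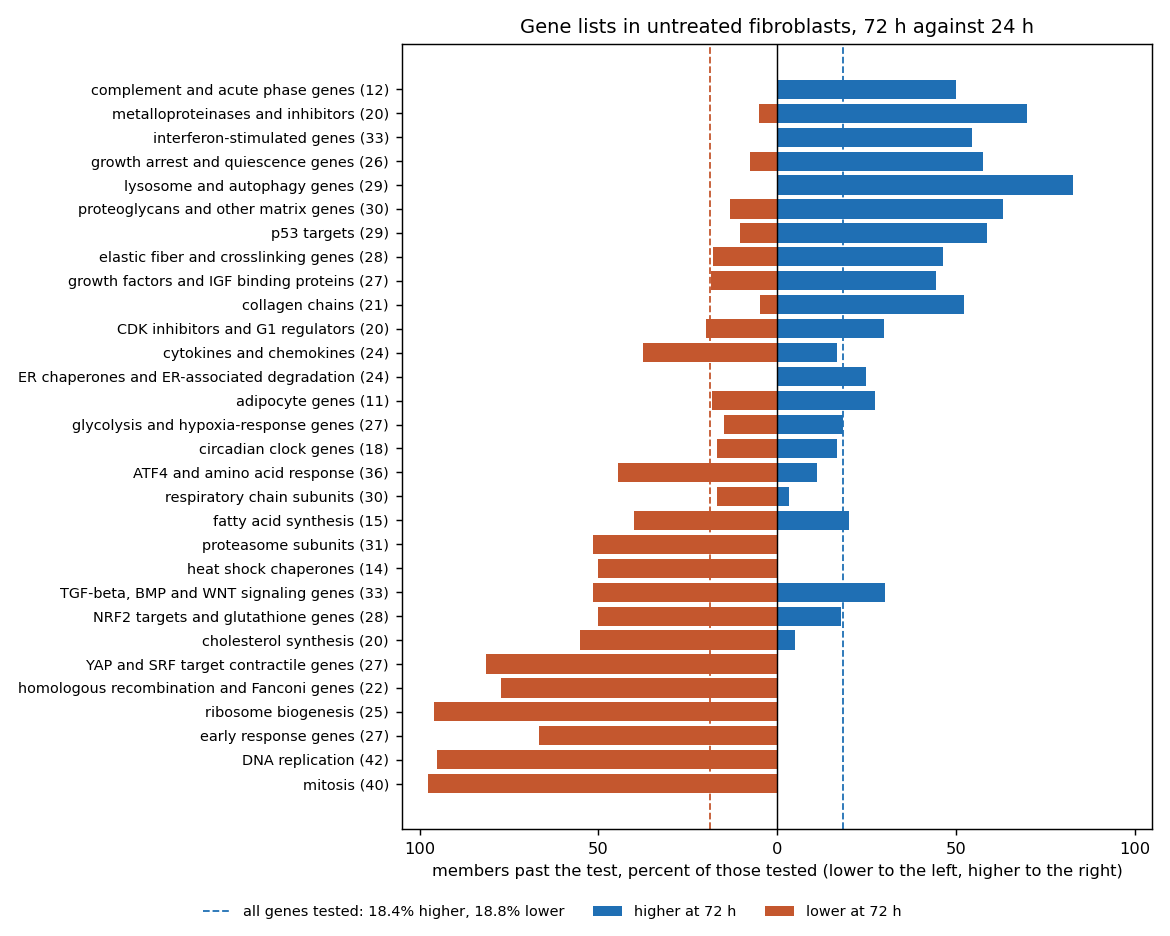
Share of the tested members of each gene list that were lower (left, orange) or higher (right, blue) at 72 h than at 24 h, in percent, with the number tested in brackets and the lists in order of their median log2 difference. Dashed lines give the share over all genes tested, 18.8% lower and 18.4% higher. Mitosis (39 of 40 lower) and DNA replication (40 of 42) stand at the bottom, and 24 of 29 lysosomal and autophagy genes were higher.

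Genes of growth arrest and quiescence rose in 15 of 26 cases, against 18.4% of all genes, and fell in 2, with a median of 0.50. Gas1, a membrane protein first found in serum-starved fibroblasts, had log2 signals of 9.85, 10.17, 10.09 and 9.63 at 24 h and 12.71, 12.38, 12.54 and 12.34 at 72 h. Every array at 72 h lay above those at 24 h, and Gas1 rose 5.88-fold (log2 difference 2.55, SE 0.13, adjusted p = 5.1e-16). Gas2, which came from the same kind of screen, rose 4.39-fold (adjusted p = 2.8e-15), the PDGF receptor Pdgfra 2.42-fold (adjusted p = 1.2e-10) and Txnip, which restrains glucose uptake, 1.94-fold (adjusted p = 3.8e-11). The FOXO factor Foxo3 differed by 0.67 (adjusted p = 1e-08) and Selenop, the selenium carrier, by 1.69 without passing (adjusted p = 0.11), although it passed without the 4 arrays of other groups with intestinal transcripts (adjusted p = 2.5e-10). Cited2, a transcriptional coregulator, fell 1.68-fold (adjusted p = 3.5e-08). Without control 72 h replicate 1, 11 of these genes were higher, and without control 24 h replicate 4, 12 were.

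Proteoglycans and other matrix genes rose in 19 of 30 cases and fell in 4, with a median of 0.36. The small leucine-rich proteoglycans, which bind collagen and set the width of its fibrils, were among its larger rises. Lumican, Lum, had log2 signals of 5.85, 6.03, 5.76 and 5.68 at 24 h and 9.80, 9.36, 9.78 and 9.68 at 72 h, a rise of 14.2-fold (SE of log2 0.16, adjusted p = 2.9e-17). Decorin, Dcn, moved from 7.11, 7.22, 6.92 and 7.0 to 9.51, 9.33, 9.70 and 9.46, or 5.41-fold (adjusted p = 2.1e-17). In both genes the groups lay more than 2 log2 units apart, and the related Aspn and Ogn rose 3.48-fold and 3-fold (adjusted p = 2.6e-06 and 3.6e-08), from already high means of 9.53 and 10.65. Prelp, of the same family, differed by 1.55 (adjusted p = 1.9e-09) and osteomodulin, Omd, by 0.70 (adjusted p = 0.00088).

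The opposite movement was seen in Has2, which makes the hyaluronan of the pericellular coat. Its log2 signals were 9.35, 9.28, 9.27 and 9.58 at 24 h and 6.60, 6.56, 6.55 and 6.37 at 72 h, and the fall of 7.22-fold was the largest of all genes whose groups did not overlap (SE of log2 0.11, adjusted p = 2.9e-18). Versican, Vcan, which binds hyaluronan, differed by 1.29 (adjusted p = 3.1e-14). Sparc, which fibroblasts make in large amounts, did not pass the test (0.10, adjusted p = 0.16), and Tnc, the matrix glycoprotein tenascin C, differed by -0.21 (adjusted p = 0.0049).

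Collagen chains rose in 11 of 21 cases and fell in 1, with a median of 0.19. The chains of collagen I, the main fibrillar collagen, did not pass the test, with differences of 0.11 in Col1a1 (adjusted p = 0.41) and 0.13 in Col1a2 (adjusted p = 0.24). Col3a1, whose product forms fibrils with collagen I, rose from 13.32, 13.27, 13.20 and 13.15 to 14.29, 14.12, 14.20 and 14.17, or 1.95-fold (adjusted p = 0.00014), with no overlap. Col8a2, a short-chain collagen, rose 4.38-fold from a mean of 4.62, near the limit (adjusted p = 2.2e-14), and Col14a1, which sits on fibril surfaces, 2.15-fold (adjusted p = 3.9e-07). Col7a1, the anchoring fibril collagen of skin, fell 1.59-fold (adjusted p = 4e-05).

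Elastic fiber and crosslinking genes rose in 13 of 28 cases and fell in 5, with a median of 0.21. Elastin itself, Eln, had log2 signals of 7.84, 7.85, 7.59 and 7.61 at 24 h and 9.66, 9.36, 9.58 and 9.51 at 72 h, a rise of 3.5-fold (adjusted p = 3.1e-10). Fibrillin Fbn2 rose 3.82-fold (adjusted p = 1.1e-09) and the microfibril protein Mfap4 3.21-fold (adjusted p = 8.8e-08), whereas Emilin2 fell 2.11-fold (adjusted p = 4.8e-11). Of the enzymes that crosslink or modify the chains, Loxl4 was at -0.98 (adjusted p = 4e-12) and the prolyl hydroxylase P4ha1 at 0.48 (adjusted p = 2.4e-08). The groups did not overlap in Eln, Fbn2 or Mfap4.

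Metalloproteinases and their inhibitors rose in 14 of 20 cases and fell in 1, with a median of 0.58. The aggrecanases Adamts1 and Adamts5, which cut versican and related proteoglycans, rose 3.26-fold and 2.83-fold (adjusted p = 7.9e-12 and 4.2e-09). The collagenase Mmp13 had log2 signals of 3.09, 3.21, 3.23 and 3.37 at 24 h, all under the limit of 4.40, and of 5.40, 4.41, 4.75 and 5.56 at 72 h (at least 1.55-fold higher, adjusted p = 8.2e-08). The arrays at 72 h did not overlap those at 24 h but spread over more than 1 log2 unit. Timp1, a secreted inhibitor of these enzymes that growth factors induce, was the member that fell, from 13.46, 13.43, 13.43 and 13.44 to 12.23, 12.37, 12.35 and 12.32 (2.18-fold, adjusted p = 3.6e-14). The inhibitor Reck differed by 1.33 (adjusted p = 7.4e-13).

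Lysosome and autophagy genes rose in 24 of 29 cases and fell in none, with a median of 0.44. The rise was under 2-fold in all members but Ctsf, and the list mean was 10.61, 10.55, 10.48 and 10.49 on the control 24 h arrays and 11.05, 10.96, 10.97 and 10.96 on the control 72 h arrays. Cathepsin F, Ctsf, had log2 signals of 7.78, 7.61, 7.38 and 7.62 at 24 h and 8.84, 8.76, 8.89 and 8.82 at 72 h, and rose 2.34-fold (SE of log2 0.10, adjusted p = 3.9e-11). The peptidase Tpp1 rose 1.76-fold and the glycogen-cleaving glucosidase Gaa 1.74-fold (adjusted p = 3.3e-11 and 1.8e-08). Lamp1, the main membrane protein of the lysosome, differed by 0.33 (adjusted p = 3.4e-06). Tfeb, the factor that drives these genes as a network, did not pass (0.16, adjusted p = 0.3). The CLEAR element that it binds, searched as TCACGTGA, was found in 2 of 24 promoters (8.33%), against 1.39% of tested genes and 0.803% of all promoters. A CArG box, the site of SRF, was found in 4 of 23 promoters of the contractile list (17.4%), against 1.27% and 1.4%.

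Interferon-stimulated genes rose in 18 of 33 cases and fell in none, with a median of 0.56, and in 27 of 33, against 19.7% of all genes, the arrays at 72 h all lay above those at 24 h. The levels were low and the spread at 72 h wide, with list means of 6.32, 6.37, 6.36 and 6.38 on the control 24 h arrays and 7.17, 6.98, 7.19 and 7.05 on the control 72 h arrays. Ifit1, which binds foreign RNA, had log2 signals of 4.45, 4.75, 4.16 and 4.78 at 24 h and 6.98, 5.87, 6.78 and 6.38 at 72 h, a rise of 3.91-fold (SE of log2 0.38, adjusted p = 0.00011). Its partner Ifit3 rose 3.05-fold (adjusted p = 5.1e-10), Usp18, which removes ISG15 and dampens the interferon receptor, 3.18-fold (adjusted p = 1.7e-05) and Rtp4 2.67-fold (adjusted p = 5.2e-05). Stat2, part of the factor through which interferon acts, differed by 1.26 (adjusted p = 6.1e-07). The induced factor Irf7 (0.47, adjusted p = 0.27) and viperin, Rsad2 (0.45, adjusted p = 0.17), did not pass. Without the 4 arrays of other groups that held intestinal transcripts and entered the estimate of the spread, 26 of the 33 were higher, and without control 24 h replicate 4, which also held some, 17 were higher.

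The interferon-stimulated response element is shown in the promoters of the 2 genes with the largest rise among those that hold it. Genes of the same chromosome as above were left out of the choice. Each match on either strand (GAAA, 2 bases of any kind, GAAA) is in capitals. The 250 bases before the start lie on the plus strand, at chr19:34640639-34640888 for Ifit1 and at chr19:34583279-34583528 for Ifit3.
Ifit1: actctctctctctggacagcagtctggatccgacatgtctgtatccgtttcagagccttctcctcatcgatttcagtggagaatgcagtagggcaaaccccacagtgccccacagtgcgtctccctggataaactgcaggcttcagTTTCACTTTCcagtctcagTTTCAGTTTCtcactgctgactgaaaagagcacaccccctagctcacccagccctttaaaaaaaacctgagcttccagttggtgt
Ifit3: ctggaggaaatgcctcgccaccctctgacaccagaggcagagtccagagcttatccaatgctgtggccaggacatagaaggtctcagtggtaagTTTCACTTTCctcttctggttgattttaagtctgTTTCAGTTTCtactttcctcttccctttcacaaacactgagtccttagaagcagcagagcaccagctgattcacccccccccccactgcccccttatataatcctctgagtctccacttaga
A match was found in 12 of the 27 members with a promoter (44.4%), against 2.42% of tested genes and 3.04% of all promoters. Both promoters shown hold 2 matches.

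Complement and acute phase genes rose in 6 of 12 cases and fell in none. C1s1, a protease of the first complement component, had log2 signals of 5.42, 5.51, 5.45 and 5.50 at 24 h and 7.94, 7.74, 7.94 and 7.76 at 72 h, and its partner C1ra 6.82, 6.92, 6.76 and 6.64 and 8.62, 8.54, 8.76 and 8.65. Neither gene showed overlap, and they rose 5.18-fold and 3.62-fold (adjusted p = 2.9e-15 and 1.8e-13). Cd55, which protects cells from complement, rose 4.78-fold (adjusted p = 3.4e-10), and Serping1, the inhibitor of C1, differed by 1.31 (adjusted p = 2.1e-06). The 17 macrophage markers tested held no call in either direction at these times. However, the mean of all 19 macrophage markers was 4.28 to 4.39 on the arrays compared, under the limit. On each of these arrays only 7 to 9 of the 19 reached it. Near the background a lack of calls says little, and the cell source of the complement transcripts was not tested.

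Cytokines and chemokines were higher in 4 and lower in 9 of 24 cases. Cxcl12, a homing signal that stromal cells release, rose from 11.31, 11.31, 11.35 and 11.28 to 12.94, 12.68, 12.80 and 12.80 (2.81-fold, adjusted p = 4.4e-15). Cxcl5, which attracts neutrophils, rose 5-fold (adjusted p = 1.2e-12). The macrophage growth factor Csf1 fell 1.92-fold (adjusted p = 2.8e-10), and Il6 and Ccl2 differed by -0.53 (adjusted p = 0.00091) and -0.46 (adjusted p = 0.0014).

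Growth factors and IGF binding proteins were higher in 12 and lower in 5 of 27 cases. Igfbp3, which carries and sequesters IGFs, had log2 signals of 7.62, 7.55, 7.37 and 7.33 at 24 h and 10.97, 10.40, 10.54 and 10.76 at 72 h, a rise of 9.21-fold (SE of log2 0.12, adjusted p = 6.9e-19). Igfbp5 rose 4.04-fold (adjusted p = 2.8e-13), the vessel-stabilizing ligand Angpt1 4.75-fold (adjusted p = 2e-13) and pleiotrophin, Ptn, 4.28-fold (adjusted p = 3.3e-16). The IGF ligands themselves also differed, Igf1 by 1.20 (adjusted p = 3.3e-11) and Igf2 by 0.80 (adjusted p = 9.9e-08). Hgf, the ligand of MET, differed by 1.37 (adjusted p = 7.7e-10).

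Among genes of TGF-beta, BMP and WNT signaling, 10 of 33 were higher and 17 lower. Sfrp2, a secreted WNT antagonist, rose from 5.29, 5.50, 5.10 and 5.28 to 7.42, 7.62, 7.58 and 7.58 (4.77-fold, adjusted p = 5.1e-14) and its relative Sfrp1 3.47-fold (adjusted p = 1.4e-13). Bmp4 rose 3.06-fold (adjusted p = 1.1e-08), whereas Id1, a direct target of BMP signals and of serum, fell 2.89-fold (adjusted p = 1.2e-10). Inhba, which encodes the subunit of activin A, fell 2.97-fold (adjusted p = 1.9e-13). Tgfb1 differed by -0.89 (adjusted p = 6.5e-06) and its receptor Tgfbr2 by 1.46 (adjusted p = 2.3e-16).

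Metabolic and stress lists had medians between -0.21 and 0.24. Over all genes tested, 18.4% were higher and 18.8% lower. Cholesterol synthesis genes were lower in 11 of 20 cases and higher in 1, with a median of -0.21, the isomerase Idi1 at -0.57 (adjusted p = 7.8e-05) and the sterol reductase Tm7sf2 at 0.78 (adjusted p = 1.4e-05). Fatty acid synthesis genes held 3 higher (20%) and 6 lower (40%) of 15, or 3 lower after a further quantile normalization, with the synthase Fasn at -0.49 (adjusted p = 1.5e-05). Of 11 adipocyte genes, 3 were higher (27.3%) and 2 lower (18.2%), near the shares of all genes for so few members. The lipase Lpl stood at 0.92 (adjusted p = 7.1e-08) and Pparg, the master factor of fat cells, at -1.02 (adjusted p = 1.1e-06). Genes of the ATF4 and amino acid response were lower in 16 of 36 cases and higher in 4, with the serine pathway enzyme Psph at -0.62 (adjusted p = 4.5e-07) and Atf4 itself at -0.07 (adjusted p = 0.5). Glycolysis and hypoxia-response genes, with 5 of 27 higher and 4 lower (2 lower without control 72 h replicate 1 or without control 24 h replicate 4), and circadian clock genes, with 3 of 18 each way, lay close to the shares of all genes, and Gapdh differed by -0.03 (adjusted p = 0.6). Respiratory chain subunits held 1 higher and 5 lower of 30, but 11 lower without the 4 arrays with intestinal transcripts, 8 with the arrays centred on their median and 3 without control 24 h replicate 4. Their list mean was 10.54 on control 72 h replicate 1 and 10.83 to 10.97 on the other arrays at 72 h. ER chaperones held 6 higher (25%, against 18.4% of all genes) and none lower of 24. The count of higher members was 3 without control 72 h replicate 1, without control 24 h replicate 4 or with centred arrays. Their share of higher members thus did not stay above that of all genes.

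NRF2 targets and glutathione genes were lower in 14 of 28 cases and higher in 5, with a median of -0.20. The quinone reductase Nqo1 fell 1.65-fold, from 6.89, 6.87, 6.97 and 6.88 to 6.15, 6.09, 6.18 and 6.31 (adjusted p = 0.0027), and the membrane glutathione transferase Mgst1 rose 2.05-fold (adjusted p = 0.0002). Thioredoxin, Txn1, had log2 signals of 12.94, 12.96, 12.85 and 12.96 at 24 h and 10.80, 12.32, 12.25 and 12.06 at 72 h. Control 72 h replicate 1 lay far below its group, and the difference was -1.07 with it (adjusted p = 3.1e-05) and -0.72 without it. Genes on the list of p53 targets rose in 17 of 29 cases and fell in 3, with a median of 0.24. The lipid transfer protein Pltp rose 2.63-fold (adjusted p = 2.4e-10) and the stress protein Trp53inp1 2.1-fold (adjusted p = 9.5e-12), while the proapoptotic Pmaip1 fell 1.6-fold (adjusted p = 2.1e-07) and Mdm2, the p53 ubiquitin ligase, did not pass (0.17, adjusted p = 0.057).

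Several of the largest changes lay outside these lists. Cxcl15, a chemokine known from the lung epithelium of mice, had log2 signals of 5.07, 5.78, 5.46 and 5.20 at 24 h and 9.72, 9.60, 9.84 and 9.64 at 72 h, and its rise of 20-fold had the largest fitted log2 difference of the genes without overlap (SE of log2 0.18, adjusted p = 9e-18). Mest, an imprinted gene expressed from the paternal allele in mesoderm, went from 8.78, 9.14, 8.96 and 8.74 to 12.84, 12.58, 12.77 and 12.65 (14-fold, adjusted p = 5.4e-21), to a level among the high signals of the arrays. Agtr2, an angiotensin receptor of fetal mesenchyme, lay under the limit at 24 h with 3.18, 3.36, 3.27 and 3.43 and reached 7.42, 6.32, 7.57 and 6.84 at 72 h (at least 6.21-fold higher, adjusted p = 1.9e-16). In Cxcl15 and Mest the groups lay more than 2 log2 units apart.

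Further genes among the 15 largest rises were the secreted Pamr1 (10.9-fold, adjusted p = 2.1e-17), the glycogen regulator Ppp1r3c (at least 6.9-fold from a mean of 4.22, under the limit, adjusted p = 1.6e-16), Arhgap20 (7.85-fold, adjusted p = 6.2e-19) and the matrix protein Abi3bp (7.24-fold, adjusted p = 4.9e-11). Ackr3, a scavenger receptor for Cxcl12, rose 7.16-fold (adjusted p = 1.3e-14), the R-spondin receptor Lgr5 6.94-fold (adjusted p = 7.2e-15), Rgs2, which damps G protein signals, 6.85-fold (adjusted p = 3.9e-10), proenkephalin, Penk, 6.75-fold (adjusted p = 6.2e-19) and the matricellular Ccn3 6.61-fold (adjusted p = 3.2e-17). Serpinb1a, an inhibitor of neutrophil proteases, rose from 6.01, 6.64, 6.41 and 6.59 to 10.05, 9.80, 9.82 and 9.81, with a large SE of 0.79 on the log2 scale (adjusted p = 0.00078). This SE rests on the spread over all 35 arrays, and without the 4 arrays of other groups with intestinal transcripts the adjusted p was 1.5e-16.

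Among the falls, Gjb2, which encodes the gap junction protein connexin 26, had log2 signals of 11.09, 11.09, 10.90 and 10.95 at 24 h and 8.29, 8.33, 8.11 and 8.30 at 72 h (6.72-fold, adjusted p = 1.7e-13). The chemokine receptor Cxcr6 was at least 4.31-fold lower and the retinoic acid synthase Aldh1a3 at least 4.48-fold lower, both to means under the limit, 4.24 and 4.32 (adjusted p = 4e-14 and 7.7e-15). Car8, a relative of the carbonic anhydrases, fell 4.84-fold (adjusted p = 1.9e-16), the matrix ligand nephronectin, Npnt, 4.42-fold (adjusted p = 4.7e-18) and endothelial lipase, Lipg, 4.14-fold (adjusted p = 1.7e-09). The groups did not overlap in any of them.

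Levels before 24 h were set beside these changes, with the arrays at 24 and 72 h the same as above. The mitosis list had a mean of 8.46 ± 0.11 at 0 h, 8.55 ± 0.03 at 1 h and 8.60 ± 0.03 at 8 h, then 9.23 ± 0.05 at 24 h and 7.94 ± 0.10 at 72 h (SD over 4 arrays each). Its level was thus highest at 24 h and lowest at 72 h, below the 0 h arrays. The early response list was highest at 1 h, with 10.22 ± 0.06, and fell through 8.75 ± 0.02 and 8.32 ± 0.07 to 7.54 ± 0.03, against 8.15 ± 0.14 at 0 h. For the contractile list the mean lay between 11.92 and 12.18 up to 24 h and was 11.34 ± 0.03 at 72 h. Ribosome biogenesis was highest at 8 h, with 10.11 ± 0.06, and lowest at 72 h, with 9.18 ± 0.03. Matrix genes were lowest at 8 h (9.35 ± 0.06) and highest at 72 h (10.45 ± 0.04). The lysosomal list stayed between 10.48 and 10.60 up to 24 h and stood at 10.99 ± 0.04 at 72 h. Of the 4 arrays at 0 h, 1 held intestinal transcripts, and the arrays at 8 h held macrophage transcripts, whose part in the 8 h values was not tested.

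**Figure D3:**
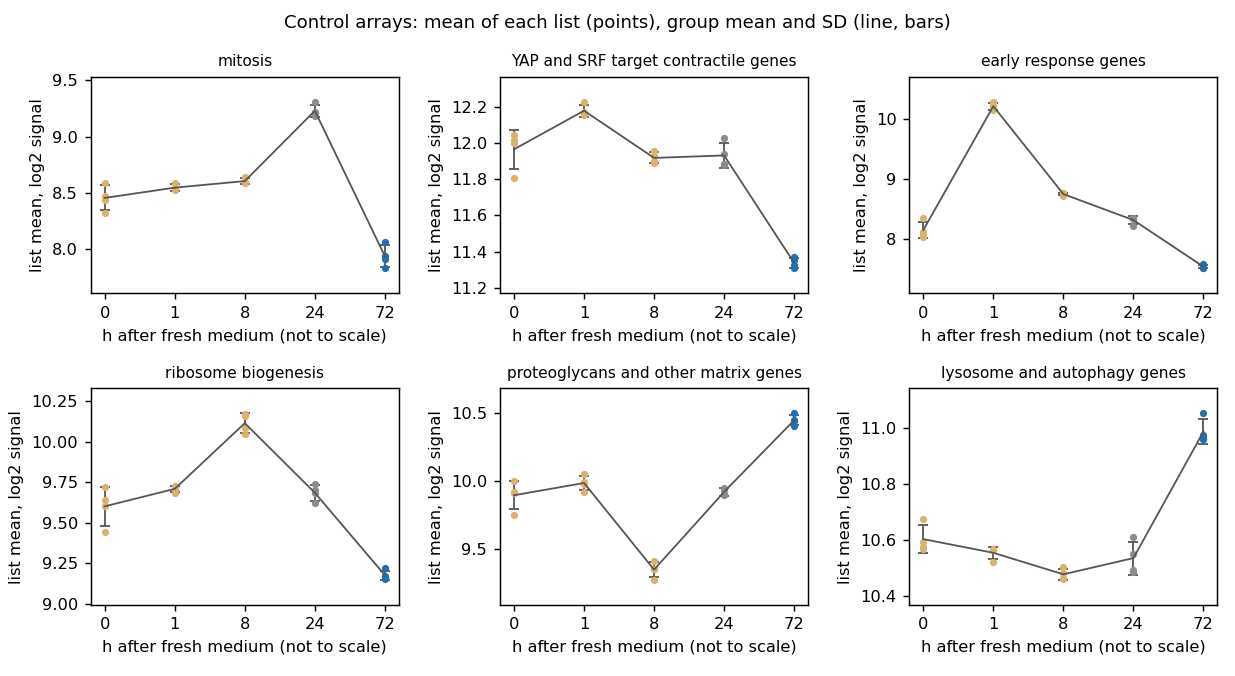
Mean log2 signal (y axis) of 6 gene lists on each control array (points) at 0, 1, 8, 24 and 72 h after fresh medium (x axis, not to scale), with lines through the group means and bars of 1 SD (n = 4). The compared groups are grey (24 h) and blue (72 h). The mitosis list peaks at 24 h and the early response list at 1 h, and the lysosomal list is nearly level until 24 h. The arrays at 8 h held macrophage transcripts.

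Single genes had courses of their own. Hbegf had group means of 10.92 at 0 h, 12.80 at 1 h and 11.56 at 8 h, against 11.52 at 24 h and 8.68 at 72 h. Has2 stood at 8.25, 9.74 and 9.11 before its 9.37 at 24 h. Lum stood at 6.04, 6.29 and 6.14, Dcn at 8.06, 8.03 and 9.40, and Mest at 9.54, 9.54 and 6.13 at these times. The values at 8 h are from the arrays with macrophage transcripts. For Lum, Dcn and Mest the means at 72 h were the highest of the 5 times, and for Hbegf and Has2 they were 8.68 and 6.52, the lowest.

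The same interval in MMS-treated cells shows which of these changes differed without the agent. MMS 72 h (3 arrays) was set against MMS 24 h (4 arrays), and the untreated change minus the MMS change was tested in the same model, with no array shared between the changes. In MMS-treated cells 2856 genes (20.2%) were higher and 3430 (24.3%) lower at 72 h than at 24 h. Of the genes higher in untreated cells, 1421 were also higher in MMS-treated cells, 54.8% of the untreated and 49.8% of the MMS list, and of the genes lower in untreated cells 1650 were also lower, 62.1% and 48.1%. For 2339 genes (16.5%) the untreated change was the higher and for 1759 (12.4%) the lower (adjusted p under 0.05), 29% in either direction. With every array set to a common median, these counts were 1525 and 2265, and the median difference of the changes over all genes moved from 0.04 to -0.07. MMS 24 h replicate 3 and MMS 72 h replicate 3 held intestinal transcripts, with 24 and 12 of 28 markers more than 1 log2 unit above their groups, and without the 4 arrays of that kind 2411 and 1905 genes were called.

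Genes for mitosis and DNA replication fell by less in untreated than in MMS-treated cells in the median. The mitosis list had a median of -1.35 in untreated and -2.75 in MMS-treated cells, and the difference was called in 39 of 40 members, each with the untreated change the higher. Ube2c fell by 1.76 and 2.85 on the log2 scale (difference 1.08, adjusted p = 2.3e-05). For DNA replication the medians were -0.79 and -1.84, with 39 of 42 members called. Brca1 fell by 0.98 and 2.73 (difference 1.75, adjusted p = 2.3e-08). Of the recombination and Fanconi genes, 16 of 22 had the higher change in untreated cells, or 9 with centred arrays. Ribosome biogenesis genes had medians of -0.50 and -0.60, and the difference was called in 3 of 25.

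Contractile genes moved in opposite directions in the median. Their median was -0.37 in untreated and 0.47 in MMS-treated cells, where 20 of 27 rose and 2 fell, and the untreated change was the lower in 26 of 27. Cnn1 changed by -1.43 and 2.15 (difference -3.58, adjusted p = 2.7e-15) and Acta1 by -1.88 and 1.02 (difference -2.90, adjusted p = 1.1e-15). The mean of Cnn1 was 12.23 at 24 h and 10.80 at 72 h in untreated cells, and 9.56 and 11.71 in MMS-treated cells. Cholesterol synthesis showed the same contrast, with medians of -0.21 and 0.78 and the untreated change lower in 19 of 20. Idi1 changed by -0.57 and 1.31 (difference -1.87, adjusted p = 1.4e-10).

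For many matrix genes the untreated change was the lower. Of 21 collagen chains, 18 rose in MMS-treated cells with a median of 1.13, and the untreated change was lower in 16 and higher in 1, Col8a2 (adjusted p of the difference = 3.6e-08), whose means in MMS-treated cells were under the limit, 3.78 and 4.28. Col3a1 changed by 0.96 in untreated and 3.58 in MMS-treated cells, whose mean at 24 h was 10.14 against 13.24 without MMS. The untreated change was also lower in 18 of 28 elastic fiber genes and 15 of 30 proteoglycans and other matrix genes, and higher in 3 and 5. Aspn changed by 1.80 and 3.84 (difference -2.04, adjusted p = 0.00016). Lum and Dcn rose by more in untreated cells, with differences of 1.37 and 0.99 (adjusted p = 5.4e-05 and 6.2e-06).

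Lysosomal genes rose in untreated cells and not as a group in MMS-treated cells. There 9 of 29 were higher and 8 lower with a median of 0.04, and the untreated change was the higher in 22. With centred arrays it was higher in 16 and lower in 1. In MMS-treated cells NRF2 targets had a median of -1.03, and the untreated change was higher in 22 of 28 and lower in 1. Nqo1 differed by -0.72 and -3.36 (adjusted p of the difference = 1e-08). Interferon-stimulated genes were higher in 12 of 33 and lower in 2 in MMS-treated cells, and the difference was called in 11. The untreated change was the higher in 10 of these and the lower in 1. Over all genes the shares were 16.5% and 12.4%, or 29% in either direction. Without control 72 h replicate 1, or without control 24 h replicate 4, it was higher in 7 and lower in 1. Mmp13, at least 1.55-fold higher in untreated cells, fell by 3.43 on the log2 scale in MMS-treated cells, from a mean of 7.94 to 4.52 (adjusted p of the difference = 3e-13).

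Other genes named by the size of this difference were Ppbp (1.27 against 3.53), Slc24a3 (1.23 against 3.10) and Mgst1 (1.03 against -1.31) among the rises, and Ctnnd2 (-1.71 against 1.69), Gjb2 (-2.75 against 0.32), Lipg (-2.05 against 0.63) and Npnt (-2.14 against 0.24) among the falls. Adjusted p-values of these differences were at most 6.2e-07. Ppbp is a platelet-type chemokine, Slc24a3 a sodium, potassium and calcium exchanger and Ctnnd2 a neural catenin. For Gjb2 the mean in MMS-treated cells was 6.45 at 24 h, against 11.01 in untreated cells. The difference was not called for Gas1 (2.55 against 2.71, adjusted p = 0.61), C1s1 (2.37 against 2.51, adjusted p = 0.68) or Dusp5 (-1.84 against -1.86, adjusted p = 0.94), which does not show that their changes were equal.

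**Figure D4:**
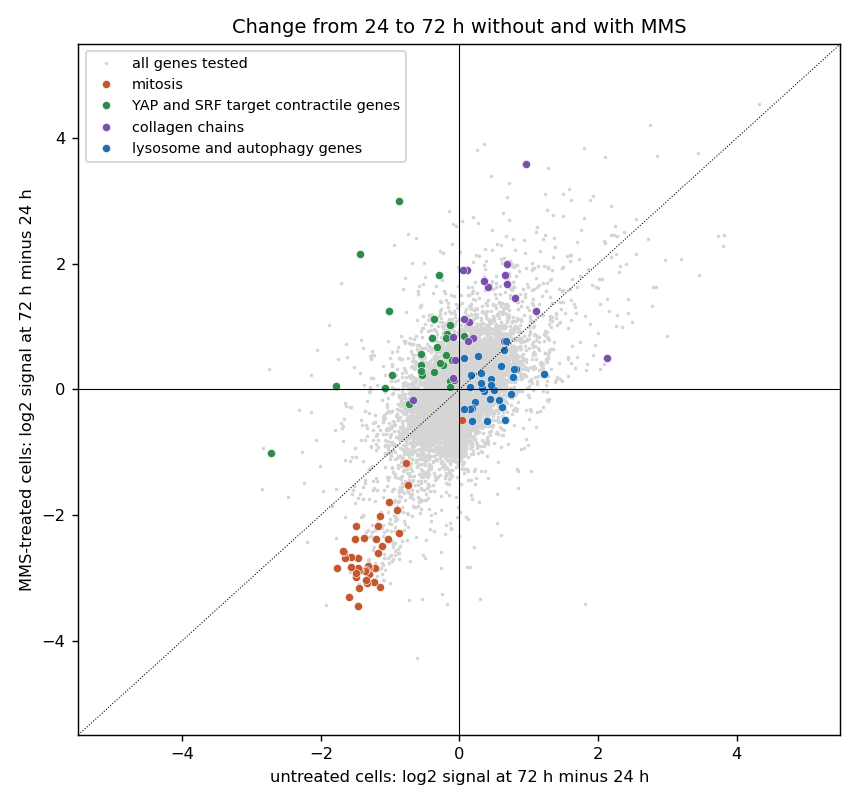
Log2 signal at 72 h minus 24 h in untreated cells (x axis) and in MMS-treated cells (y axis) for each gene tested (grey), with 4 lists in colour and a dotted line where the changes are equal. Most mitosis genes lie below the dotted line (medians -1.35 and -2.75), most contractile genes and collagen chains above it (contractile medians -0.37 and 0.47), and lysosomal genes to the right of zero with MMS values around zero (medians 0.44 and 0.04).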

How the data were processed

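RNA of 35 samples was measured on Affymetrix mouse expression arrays with 45101 probe sets. The authors deposited log2 values from RMA, which corrects background, normalizes quantiles across arrays and summarizes the probes of a set. The version of RMA was not given in the sources used here. Of the probe sets, 34958 had 1 gene symbol in the platform annotation, 932 several and 9211 none. Of the sets with 1 symbol, 34754 (99.4%) matched the reference by their gene identifier, and the rest kept the symbol of the annotation. Sets with several symbols or none were left out, and each gene was taken from its brightest set, by the mean of the 35 arrays. Genes with a mean of at least 4.40, the 40th percentile, in at least 1 of 9 groups were tested.

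A linear model with 1 mean per group over all 35 arrays (26 residual degrees of freedom) was fitted with limma 3.58.1 in R 4.3.3, with empirical Bayes moderation and Benjamini-Hochberg adjustment over 14135 genes. SE are those of the model. The untreated change minus the MMS change was a contrast of the same model. Named were the 15 largest rises and falls without overlap between groups, up to 4 called members of each list per direction, 6 genes per direction by the difference from MMS, and other list members as values. The gene lists, markers and tests were chosen with earlier results of these data known, and the list of imprinted genes after its values had been seen. Promoters, 1 per gene, were the 250 bases before the start in RefSeq, GRCm38.p6, and the tests were checked on simulated data. Genes of 1 chromosome were left out when the sequences to show were chosen, but not from the shares of promoters with a match. Alternatives changed the arrays in the model, block, weights, moderation, normalization, filter and choice of probe set, and left out single arrays. All files of values were used, and list members without a usable probe set were not analysed here.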

Additional observations from a re-analysis of the deposited data

Results flagged for a closer look

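For each gene named, the 4 arrays of each group were searched for 1 array whose gap to its nearest neighbour, as a share of the range of the group, exceeded the critical value of Dixon's test. This was met in 18 of 342 groups, where chance gives about 1 in 20, and 10 of them were control 72 h replicate 1. On control 24 h replicate 1 the highest log2 signal of the group was 11.80 in Atf4 and 11.25 in Mdm2. On control 24 h replicate 2 the highest log2 signal of the group was 6.51 in Mfap4. On control 24 h replicate 3 the lowest log2 signal of the group was 12.85 in Txn1. On control 24 h replicate 4 the highest log2 signal of the group was 9.57 in Ankrd1 and 8.44 in Egr2. On control 72 h replicate 1 the highest log2 signal of the group was 10.69 in Abi3bp, 11.46 in Aspn, 8.47 in Cd55, 6.05 in Egr2, 8.06 in Phlda1 and 10.05 in Serpinb1a. On control 72 h replicate 1 the lowest log2 signal of the group was 8.32 in Hbegf, 12.62 in Igf2, 9.43 in Psmd13 and 7.62 in Tk1. On control 72 h replicate 2 the lowest log2 signal of the group was 4.37 in Palb2 and 4.51 in Tnni1.

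The untreated change from 24 to 72 h minus the MMS change was called in 121 of the 171 genes named (limma, adjusted p under 0.05), against 29% of all genes tested. Some of these genes were named for this same difference and others for a large change, so the count is not a result of its own. Values are log2 differences, positive where the untreated change was the higher. In Agtr2, Aldh1a3, Col8a2, Cxcr6, Fosb, Mmp13, Palb2 and Ppp1r3c at least 1 of the 4 group means lay under the limit of 4.40, so that the fitted difference is not a bound. In Fosb all 4 did, and its difference lies within the background. Among genes for DNA replication the difference was 0.81 in Gins3, 0.94 in Mcm2, 1.94 in Mcm5, 0.93 in Pcna, 1.32 in Pole, 0.40 in Rfc1, 0.61 in Rrm2, 1.61 in Tk1 and 1.45 in Uhrf1. For genes for mitosis it stood at 0.92 in Aurka, 1.17 in Cdk1, 0.90 in Cenpa, 1.43 in Espl1, 1.53 in Kif11, 1.99 in Mki67, 0.51 in Pttg1, 1.04 in Tpx2 and 1.08 in Ube2c. In homologous recombination and Fanconi genes the value was 1.75 in Brca1, 1.69 in Exo1, 0.66 in Palb2 and 0.38 in Rad50. Values of CDK inhibitors and G1 regulators were -0.84 in Ccnd1, 1.83 in Ccne2, 0.74 in Cdkn1c and 0.69 in Rbl2. Within growth arrest and quiescence genes it was 0.40 in Foxo3, 0.69 in Gas2, 1.46 in Pdgfra and 0.59 in Txnip. Among collagen chains the difference was -1.78 in Col1a1, -0.94 in Col1a2, -2.62 in Col3a1, -0.49 in Col7a1 and 1.62 in Col8a2. For elastic fiber and crosslinking genes it stood at 0.64 in Eln, -1.04 in Emilin2, -1.15 in Fbn2, -1.13 in Loxl4 and -0.86 in P4ha1.

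In proteoglycans and other matrix genes the value was -2.04 in Aspn, 0.99 in Dcn, -1.27 in Has2, 1.37 in Lum, -1.60 in Ogn, -0.51 in Sparc, -1.43 in Tnc and 0.70 in Vcan. Values of metalloproteinases and inhibitors were -0.64 in Adamts1, -1.26 in Adamts5, 5.23 in Mmp13 and -0.95 in Timp1. Within contractile genes it was -1.16 in Acta2, -0.25 in Actb, -1.71 in Ankrd1, -0.94 in Ccn1, -0.85 in Ccn2, -3.58 in Cnn1, -1.09 in Crim1 and -1.83 in Itga5. Among early response genes the difference was -0.75 in Egr2, 0.64 in Fosb, -0.45 in Fosl1 and -0.39 in Myc. For cholesterol synthesis genes it stood at -1.87 in Idi1 and -0.84 in Tm7sf2. In fatty acid synthesis the value was -0.90 in Fasn. Values of adipocyte genes were 0.46 in Lpl and 1.11 in Pparg. Within genes of the ATF4 and amino acid response it was -0.82 in Atf4 and -1.32 in Psph.

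Among p53 targets the difference was 0.55 in Mdm2, -0.75 in Pmaip1 and 0.69 in Trp53inp1. For NRF2 targets and glutathione genes it stood at 2.34 in Mgst1 and 2.64 in Nqo1. In lysosome and autophagy genes the value was 0.98 in Ctsf, 0.46 in Gaa, 0.31 in Lamp1 and 0.49 in Tpp1. Values of interferon-stimulated genes were 1.34 in Usp18. Within complement and acute phase genes it was 1.24 in Cd55. Among cytokines and chemokines the difference was -0.88 in Ccl2, -0.42 in Csf1, -1.50 in Il6 and -1.25 in Ptgs2. For growth factors and IGF binding proteins it stood at -0.83 in Ereg, -1.90 in Hbegf, 0.62 in Hgf, -0.50 in Igf1 and 1.13 in Igfbp3. In genes of TGF-beta, BMP and WNT signaling the value was -1.40 in Bmp4, -1.28 in Inhba and -0.94 in Sfrp1.

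Values of ribosome biogenesis genes were -0.37 in Rrp12. Within proteasome subunits it was 0.41 in Psmd13. Among skeletal muscle markers the difference was -2.90 in Acta1 and -0.60 in Tnni1. For imprinted genes outside the other lists it stood at 1.52 in Mest, 0.92 in Peg3, -0.90 in Dlk1, 1.06 in Plagl1 and 0.53 in Asb4. In genes outside the lists the value was 1.22 in Ackr3, 1.28 in Agtr2, -0.76 in Aldh1a3, 0.92 in Arhgap20, -1.28 in Car8, -3.40 in Ctnnd2, -2.0 in Cxcr6, -3.07 in Gjb2 and 1.17 in Lgr5. Values of further genes outside the lists were -2.68 in Lipg, -2.38 in Npnt, -1.78 in Nppb, -1.46 in Penk, -0.79 in Phlda1, -2.25 in Ppbp, 2.14 in Ppp1r3c, 1.45 in Rgs2 and -1.87 in Slc24a3.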

How the results depend on the processing

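Under the alternatives, 132 of 134 values of the 6 gene counts stayed within 1.5 times. The count of genes with the higher untreated than MMS change was 3582 with array weights and 1525 with arrays centred on their median, against 2339. Leaving out 1 array at a time gave 2219 to 2484 genes higher and 2390 to 2580 lower at 72 h, 228 to 258 and 241 to 275 of them at least 2-fold, and 2057 to 2439 and 1549 to 1782 for the difference from MMS. Of the genes called, 83.8% (mean of all probe sets) to 99.3% (array weights and a filter on the groups compared) were called in the same direction, and 86.8% without control 72 h replicate 1. The share of calls that were higher ran from 45.4% to 52.9%, against 49.4%. The mean of all probe sets gave 174 genes at least 2-fold higher and 178 lower.

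Of the untreated changes of named genes, 3371 values under alternatives kept direction and side of the threshold, 28 passed it where the value reported did not, 12 fell short of it (Actb, Cdkn1a and Psmd13) and 3 turned. Over the mean of all probe sets Actb was at 0.012 and Pttg1 at -0.013, and Pttg1 ran from -0.030 to 0.081 when single arrays were left out. The cause was not tested. Of differences from MMS, 94 of 3264 values fell short, among them most for Eln, Asb4 and Fosb, and none turned. For 145 further probe sets of the named genes with signals at the limit or over it, 137 had the direction of the one used. List medians moved by less than the spread between arrays in 551 of 600 values.

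With the replicate number as a block, 2599 genes were higher and 2650 lower, 246 and 248 at least 2-fold, and 98.4% of calls held. Deviations of arrays with the same number correlated at -0.153 to -0.00727 between the groups compared, and those with other numbers at -0.0745 to 0.0808, so the numbers were not taken to pair the arrays. The number of arrays, 4 a group, and signals near the background limit the precision for genes of low level, such as Mmp13 and Agtr2 at 24 h.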

Other observations

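Imprinted genes, which are expressed from 1 parental allele and of which many act on fetal growth, were gathered into a list after the rise of Mest had been seen, so the list gets no test of its own. Of 24 listed, 20 were tested, Mest among them. At 72 h, 11 were higher than at 24 h (55%, against 18.4% of all genes) and 3 lower (15%, against 18.8%). The median log2 difference was 0.21 against 0.02 over all genes. Peg3, a paternally expressed zinc finger gene, had log2 signals of 8.90, 9.07, 9.04 and 8.94 at 24 h and 11.30, 11.03, 11.16 and 11.13 at 72 h, a difference of 2.16 (adjusted p = 4e-18) with no overlap. Plagl1, a growth regulator expressed from the paternal allele, differed by 0.69 (adjusted p = 5.8e-08) and the maternally expressed Meg3 by 0.69 (adjusted p = 0.0011). Igf2 and Igf2r, a growth factor and the receptor that clears it, which are expressed from opposite alleles, differed by 0.80 and 0.72 (adjusted p = 9.9e-08 and 0.0001).

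The members that fell were Dlk1, the transporter Slc38a4 and Asb4. Dlk1, an inhibitor of adipocyte formation, had log2 signals of 8.29, 7.88, 7.57 and 7.95 at 24 h and 6.99, 7.01, 7.11 and 7.06 at 72 h, and fell by 0.88 on the log2 scale (adjusted p = 5.5e-08). Slc38a4 fell by 0.66 (adjusted p = 9.5e-09) and Asb4 by 0.56 (adjusted p = 0.0015). The mean of the list on control arrays was 8.44 at 0 h, 8.47 at 1 h, 8.16 at 8 h, 8.37 at 24 h and 8.83 at 72 h. In MMS-treated cells 12 of the 20 were higher and 3 lower over the same interval, against 20.2% and 24.3% of all genes. There Peg3 changed by 1.25 and Plagl1 by -0.36, each below the untreated change (adjusted p of the difference = 1.1e-06 and 5.2e-08).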
